A study of Mus musculus with 2 samples.

Results

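The genes described here encode nuclear subunits of the respiratory chain and of the mitochondrial ATP synthase. They were taken by symbol: all genes of the deposited table whose symbol starts with Ndufa, Ndufb, Ndufc, Ndufs or Ndufv (complex I), Uqcr (complex III), Cox4 to Cox8 (complex IV) or Atp5 (complex V), leaving out the Ndufaf assembly factors and symbols with -ps. This gave 78 of the 16463 genes in the table, with 38 symbols for complex I, 8 for complex III, 15 for complex IV and 17 for complex V. The RNA came from unstimulated bone marrow-derived macrophages, cells grown for 5 days from marrow precursors with conditioned medium of L929 fibroblasts as the source of macrophage colony-stimulating factor. The TKO mice carried mir-106a~363-/- and mir-106b~25-/- alleles, lacking both clusters, and were homozygous for a floxed mir-17~92 cluster with Lyz2-Cre, a recombinase made in myeloid cells from the lysozyme M locus. The WT mice carried Lyz2-Cre too, and both lines are labelled C57BL/6J; the labels give neither an age nor the number of mice behind a culture. With 1 library per genotype, differences have no replicate check and no p-value is given. All intervals cover counting error only, and a difference between the 2 cultures of any other origin cannot be told apart from the genotype.

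Complex I takes electrons from NADH, complex III passes them from ubiquinol to cytochrome c, and complex IV hands them to oxygen. These 3 complexes pump protons across the inner mitochondrial membrane, and the ATP synthase, complex V, lets protons flow back to make ATP. In macrophages this pathway is known to be busy in resting and alternatively activated cells and to be turned down after inflammatory activation. A few subunits are encoded by mitochondrial DNA. Of 13 symbols searched for these, 0 were in the deposited table, so their transcripts are not analysed here. The nuclear genes are mostly short and strongly expressed, with many processed pseudogenes: RefSeq lists 19 under the same symbol prefixes. No source used here states how reads were divided between such copies and their parents, so single ratios are uncertain to that extent. Mir17hg, the host transcript of mir-17~92, had 42 counts in TKO and 8 in WT; the floxed stretch is only a part of that transcript, and gene-level counts therefore do not check the labels.

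The microRNAs of the 3 clusters carry 4 seeds, and these are shown because the TKO genotype is defined by them. Below, 1 mature RefSeq sequence stands for each seed family, with the seed (bases 2 to 8) in capitals.
mmu-miR-17-5p: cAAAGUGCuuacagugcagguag
mmu-miR-18a-5p: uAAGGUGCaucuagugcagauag
mmu-miR-19b-3p: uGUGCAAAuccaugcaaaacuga
mmu-miR-92a-3p: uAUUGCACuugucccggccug
The first seed is shared by the other miR-17 family members of the 3 clusters, and the last by mmu-miR-25-3p and mmu-miR-363-3p. A match was a 7mer-m8 site on the sense strand of a gene's longest GENCODE 3' UTR, spelled GCACTTT for miR-17, GCACCTT for miR-18, TTTGCAC for miR-19 and GTGCAAT for miR-25/92.

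Few members held such a match. Of the 74 members with at least 20 counts in 1 library, all of which had an annotated 3' UTR, 9 held a site for any of the 4 seeds (12.2%), against 3959 of 11040 genes (35.9%). The members' 3' UTRs were short, with a median of 272 bases against 1401 bases over all genes. Per kilobase of 3' UTR the members held 0.2404 sites, against 0.3003 over all genes. The miR-18 seed had matches in 5 members, the miR-17 seed and the miR-25/92 seed in 2 each, and the miR-19 seed in 0. Below are 4 of the 9, those with the highest pair of TKO over WT ratios, the middle one and the lowest, each with its match in capitals on the transcript strand (GRCm38).
Ndufa5, miR-25/92 match, chr6:24518674-24518701, minus strand: gggaattaaatGTGCAATtaaatgctct
Ndufb4, miR-18 match, chr16:37647341-37647368, minus strand: gctcagtgtctGCACCTTtcctgcctga
Uqcrfs1, miR-25/92 match, chr13:30540485-30540512, minus strand: agacttgaaagGTGCAATgtctttgata
Ndufb2, miR-17 match, chr6:39603285-39603312, plus strand: tcaattacataGCACTTTttggggggtt
Ndufa5 and Ndufb4 were among the higher members, with log2 ratios (TKO over WT) of 0.54 and 0.52, whereas Ndufb2 had the lowest ratio of the 74 members, -0.14. In 3 of the 9 the match lies further into the 3' UTR than the whole gene length of the deposited table, in a long 3' UTR isoform. These are Ndufb2 (base 3926, length 455 bases), Atp5g1 (base 2600, length 799 bases) and Ndufab1 (base 1423, length 800 bases). That length includes the coding part, so 3 is a lower bound. The matches of Ndufb4 and Ndufa10 lie beyond the 3' ends of these genes in RefSeq, at chr16:37647602 and chr1:92439486. The other 5 members with a match were Atp5sl, Ndufab1, Ndufa10, Atp5g1 and Cox7b, at log2 ratios of 0.33, 0.36, 0.16, 0.04 and -0.05. The median was 0.23 for the 9 members with a match and 0.23 for those without.

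Transcripts of all 4 complexes were slightly higher in TKO macrophages. Of the 74 members, 66 had a log2 ratio above 0 (89.2%), against 50.6% of the 11525 genes with at least 20 counts in 1 library. Most members are short, and under 1000 bases 90.6% of 53 members and 82.5% of 743 other genes were above 0. The median log2 ratio of the 74 members was 0.23, a 1.17-fold difference, against 0.0043 over all genes. The complexes lay close together, with medians of 0.23 for complex I, 0.22 for complex III, 0.22 for complex IV and 0.23 for complex V. Summed over all 78 genes there were 67634 counts in TKO and 62093 in WT, a log2 ratio of 0.19 (95% interval 0.17 to 0.20). The lowest of the 74 was at -0.14 and the highest at 0.61.

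None of the 74 members differed by 2-fold. Counting ratios of 2-fold or more in either direction whose 95% interval excludes no change, 0 members were higher and 0 lower, where 2.43% of all genes were higher and 2.30% lower. At a lower threshold, an absolute log2 ratio of 0.32 with an interval that excludes 0, 20 members were higher (27.0%) and 0 lower, against 11.5% and 12.9% of all genes. Scaled by library totals in place of TMM factors, 12 members were higher by this rule. Among genes under 1000 bases, 34.0% of 53 members and 25.4% of 743 other genes were higher by it. With the trend of the ratio on gene length removed, 1 member was higher and 3 were lower. With no threshold of size, the interval lay above 0 for 50 members (67.6%) and below 0 for 1, against 21.8% and 22.7% of all genes. Under 1000 bases it lay above 0 for 67.9% of 53 members and 45.9% of 743 other genes. Intervals narrow with counts, and the members' median level in TKO was 85.4 FPKM, against 10.9 FPKM over all genes.

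Gene length moved with these ratios. The members' median length in the deposited table was 700 bases, against 2859 bases over all genes, and 55 of the 74 lay in the shortest decile of genes. That decile had a median log2 ratio of 0.22, and the longest decile -0.32. Under 1000 bases, 53 members had a median of 0.28 and the 743 other genes 0.23. Between 1000 and 2000 bases, 18 members had 0.19 and 2565 other genes 0.15. With the lowess trend of the ratio on length removed, the members' median was 0.0073, with 38 of 74 above 0, and the medians were 0.035, 0.043, -0.034 and -0.0046 for complexes I, III, IV and V. What caused the trend with length was not tested.

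**Figure D1:**
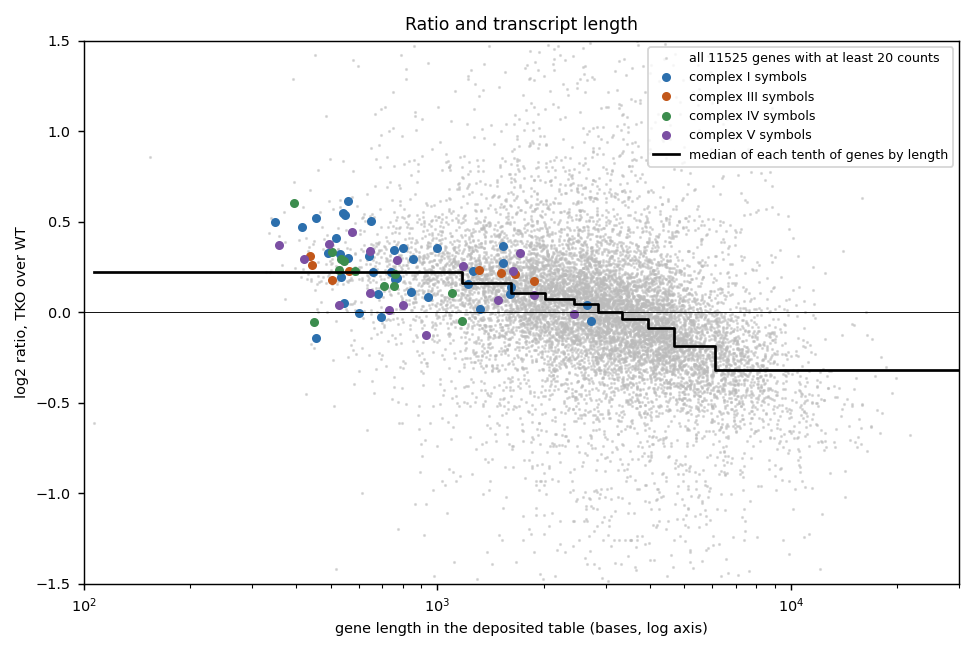
The horizontal axis is the gene length in bases on a log scale and the vertical axis the log2 ratio, TKO over WT; grey points are genes with at least 20 counts, coloured points the members by complex, and the black line the median of each decile of genes by length. Most members sit in the shortest decile, whose median is 0.22, and 226 genes lie outside the axes.

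Complex I had the widest range of log2 ratios, from -0.14 to 0.61, and the highest standard deviation, 0.19; by interquartile range complex V was wider, 0.286 against 0.256. Of complex I's 37 measured symbols, 33 had a log2 ratio above 0 (89.2%), and 14 were higher at the 0.32 threshold (37.8%). Over all genes these shares were 50.6% and 11.5%, and among other genes under 1000 bases 82.5% and 25.4%. The highest were 3 small accessory subunits, which surround the catalytic core. Ndufa12 (chromosome 10, 94199035 to 94221440, GRCm38), a subunit of the NADH-oxidising arm, had 657 counts in TKO and 449 in WT, 1.53-fold higher (1.36 to 1.73). It was the only member past 1.5-fold with an interval excluding no change. Ndufs5, a subunit of the membrane arm, had 610 counts in TKO and 436 in WT (1.46-fold, 1.29 to 1.66). Ndufa5, at the base of the matrix arm, had 451 counts in TKO and 325 in WT (1.45-fold, 1.26 to 1.68). With the length trend removed these 3 stayed above 0, at log2 ratios of 0.35, 0.28 and 0.27.

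The other accessory subunits past the 0.32 threshold were Ndufb4, Ndufb9, Ndufa3, Ndufc1, Ndufa1, Ndufs4, Ndufab1, Ndufb5, Ndufv3 and Ndufs6. Ndufab1 is the mitochondrial acyl carrier protein as well as a complex I subunit. Their log2 ratios ran from 0.52 for Ndufb4 to 0.32 for Ndufs6. Ndufb9 had 697 counts in TKO and 514 in WT, and Ndufa3 had 686 in TKO and 508 in WT. Ndufs4, an accessory subunit of the matrix arm whose loss causes Leigh-like disease in mice, had 278 counts in TKO and 226 in WT. The remaining symbol past the threshold, Ndufa4, had 963 counts in TKO and 802 in WT (1.26-fold, 1.14 to 1.38). Its product was first assigned to complex I and is now placed in complex IV.

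The core subunits of complex I, which carry the flavin and the iron-sulfur clusters or bind the quinone, stood closer to no change. Their 7 genes had a median log2 ratio of 0.11, against 0.30 for the 29 accessory subunits, and 0 of 7 passed the 0.32 threshold. Their median length was also greater, 1540 against 651 bases, and with the length trend removed the medians were -0.043 and 0.061. Ndufv2 was the highest of the core, with 662 counts in TKO and 573 in WT (1.21-fold, 1.08 to 1.35). The intervals of the 5 core genes that follow included no change. Ndufs7 had 331 counts in TKO and 305 in WT, and Ndufs8 had 365 in TKO and 354 in WT. Ndufv1, which binds NADH, had 745 counts in TKO and 728 in WT, and Ndufs3 had 420 in TKO and 414 in WT. Ndufs1, the largest subunit, had 900 counts in TKO and 973 in WT, a log2 ratio of -0.047 (-0.18 to 0.085).

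At the low end of complex I were accessory subunits too. Ndufb2 had 117 counts in TKO and 135 in WT, a log2 ratio of -0.14 (-0.51 to 0.23), on the fewest counts of any complex I gene past the count minimum. Ndufc2 had 457 counts in TKO and 488 in WT (log2 ratio -0.029, -0.22 to 0.16). Neither interval excludes no change, but with the length trend removed both do, with Ndufb2 at -0.43 (-0.80 to -0.062) and Ndufc2 at -0.27 (-0.45 to -0.080). Ndufa4l2, a paralog of Ndufa4 known to be induced by low oxygen, had 3 counts in TKO and 1 in WT and was not measured at this depth. The accessory subunits between these ends formed a continuous range. Ndufb8 had 957 counts in TKO and 809 in WT (log2 ratio 0.31), Ndufb11 had 864 in TKO and 738 in WT (0.29), and Ndufa6 had 362 in TKO and 308 in WT (0.30). Ndufa13, also known as GRIM-19, had 734 counts in TKO and 656 in WT (0.23, 0.074 to 0.38). Ndufb10, Ndufa8, Ndufb7, Ndufb3 and Ndufa10 followed at 0.22, 0.22, 0.19, 0.19 and 0.16, all but Ndufb3 with an interval above 0. The intervals of Ndufb6 (0.10), Ndufa7 (0.049), Ndufa11 (0.039), Ndufa9 (0.018) and Ndufa2 (-0.0067) included no change.

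**Figure D2:**
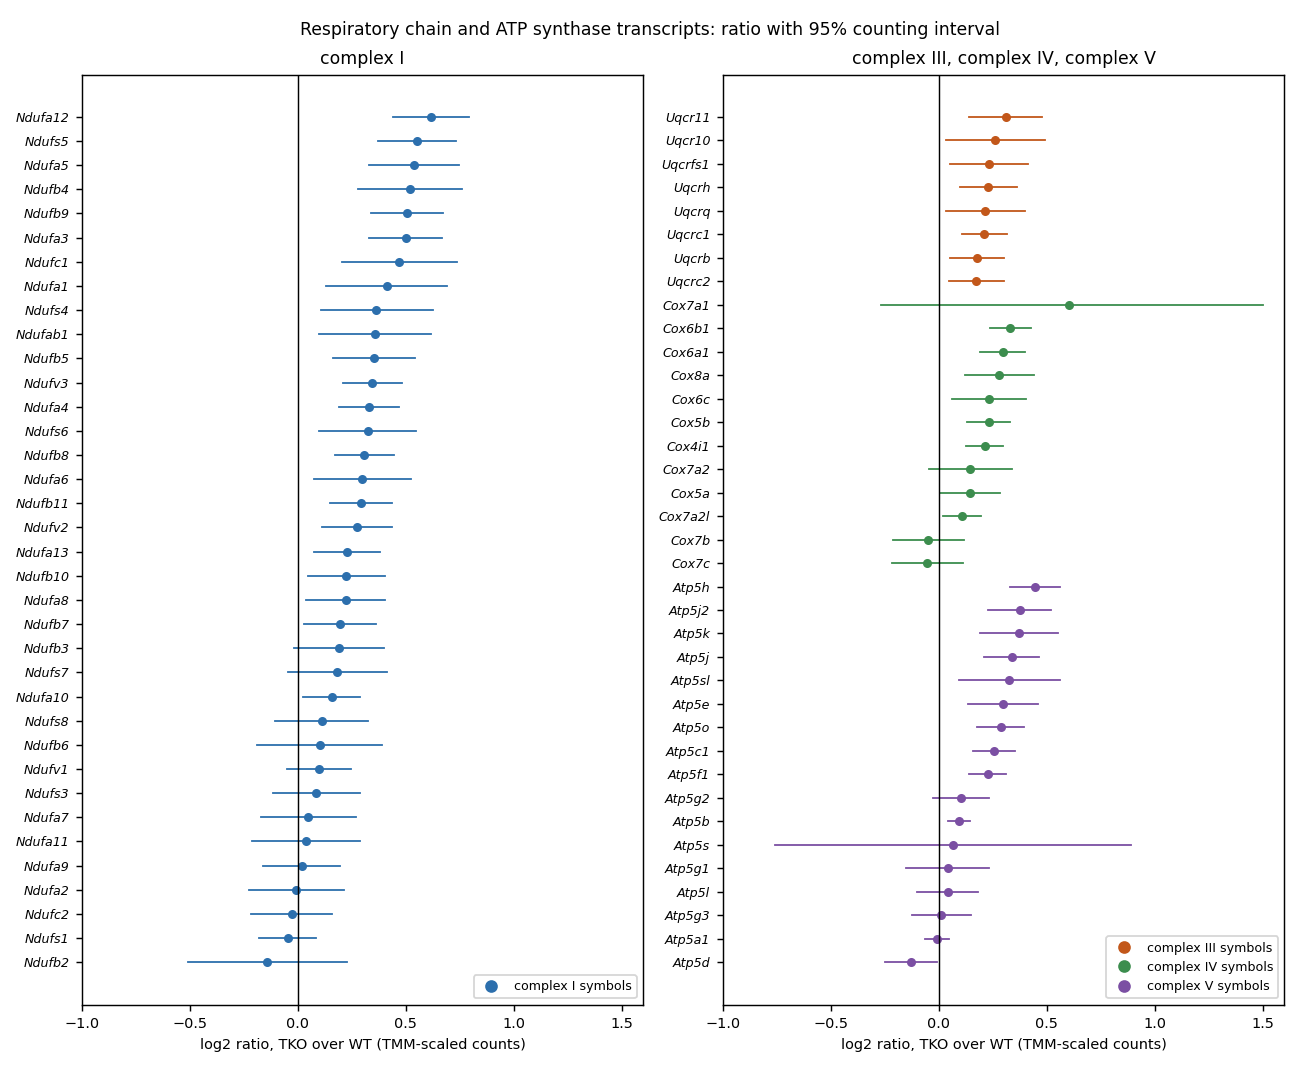
Each row is one of 73 of the 74 members with at least 20 counts in 1 library; the horizontal axis is the log2 ratio, TKO over WT, points are values and bars 95% intervals for counting error. Complex I runs from 0.61 for Ndufa12 to -0.14 for Ndufb2, while the 8 complex III genes lie between 0.17 and 0.31.

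Complex III was the most uniform. All 8 genes were higher in TKO with an interval above 0, within a narrow range of log2 ratios from 0.17 to 0.31, and 0 passed the 0.32 threshold. An interval above 0 was found for 21.8% of all genes and for 45.9% of other genes under 1000 bases. The standard deviation of the complex III ratios was 0.045, against 0.19 in complex I, 0.18 in complex IV and 0.17 in complex V. Uqcr11, a small accessory subunit, had 636 counts in TKO and 537 in WT (1.24-fold, 1.10 to 1.39), and Uqcr10, another, had 346 in TKO and 302 in WT (log2 ratio 0.26, 0.035 to 0.49). Uqcrfs1, the Rieske iron-sulfur protein that takes electrons from ubiquinol, had 532 counts in TKO and 474 in WT (1.17-fold, 1.04 to 1.33). The core proteins Uqcrc1 and Uqcrc2 were 1.16-fold (1638 counts in TKO, 1481 in WT) and 1.13-fold higher (1051 in TKO, 975 in WT). Uqcrh, the hinge protein, had 991 counts in TKO and 885 in WT (1.17-fold), and Uqcrq had 527 in TKO and 475 in WT (1.16-fold). Uqcrb, a ubiquinone-binding subunit, had 1081 counts in TKO and 1002 in WT (1.13-fold, 1.04 to 1.23). With the length trend removed, the 3 longer core genes were at log2 ratios of 0.072 to 0.088, while 3 of the 5 accessory genes were below 0, as low as -0.10 for Uqcrb. All 8 intervals then included no change.

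In complex IV the nuclear subunits surround a catalytic core made in the mitochondrion. Of the 10 subunits present in most tissues, 7 had an interval above 0 and 8 a log2 ratio above 0, with a median of 0.22. Over all genes, 21.8% had an interval above 0 and 50.6% a log2 ratio above 0. Among other genes under 1000 bases these shares were 45.9% and 82.5%. Cox6b1, which faces the intermembrane space, had 1925 counts in TKO and 1601 in WT, 1.26-fold higher (1.18 to 1.35), and was the 1 gene with a Cox symbol past the 0.32 threshold, which Ndufa4, described above, also passed. Cox6a1 had 1620 counts in TKO and 1382 in WT (1.23-fold, 1.14 to 1.32). Cox8a had 695 counts in TKO and 599 in WT (1.21-fold), and Cox6c had 604 in TKO and 538 in WT (1.17-fold). Cox5b had 1755 counts in TKO and 1566 in WT (1.17-fold), and Cox4i1, the regulatory subunit that binds ATP, had 2346 in TKO and 2118 in WT (1.16-fold). Cox5a had 857 counts in TKO and 812 in WT (1.10-fold, 1.00 to 1.22). With the length trend removed, Cox5b, Cox4i1 and Cox5a were at log2 ratios of -0.029, -0.013 and -0.092.

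Cox7a2, a small subunit, had 461 counts in TKO and 436 in WT, with an interval that includes no change (log2 ratio 0.15, -0.046 to 0.34). Cox7b had 582 counts in TKO and 630 in WT (-0.049, -0.21 to 0.12), or -0.22 (-0.39 to -0.059) with the length trend removed. Cox7c had 589 counts in TKO and 640 in WT (-0.054, -0.22 to 0.11), and with the length trend removed it was at -0.35 (-0.51 to -0.18), the lowest of the complex. Cox7a2l, classed here as a factor for joining complexes into supercomplexes and not as a subunit, had 2127 counts in TKO and 2069 in WT. Its log2 ratio was 0.10 (0.017 to 0.19), or -0.078 with the length trend removed.

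Isoforms of complex IV that belong to other tissues were rare in both libraries. Cox7a1, the heart and muscle form, was the 1 of 4 that reached the count minimum, with 29 counts in TKO and 20 in WT (1.52-fold, 0.829 to 2.83). Its FPKM, a level scaled for gene length and depth, was 7.5 in TKO and 5.07 in WT, or 11.2% in TKO and 8.45% in WT of the sum with its partner Cox7a2. Cox6a2, another muscle form, had 5 counts in TKO and 1 in WT, a 5.23-fold ratio whose interval runs from 0.586 to 247. Cox6b2, the testis form, had 7 counts in TKO and 9 in WT. Cox4i2, a lung form, had 1 count in each library. These 3 made up at most 0.522% of the FPKM of their pairs with Cox6a1, Cox6b1 and Cox4i1.

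Within the ATP synthase, class medians ran from a log2 ratio of 0.040 for the c ring to 0.37 for the small membrane subunits. The peripheral stalk, which holds the catalytic head still, had a median log2 ratio of 0.31 over 4 genes, and all 4 intervals lay above 0. The share with an interval above 0 was 21.8% over all genes and 45.9% among other genes under 1000 bases. With the length trend removed, the intervals of Atp5h and Atp5f1 still lay above 0, and those of Atp5j and Atp5o included no change. Atp5h (chromosome 11, 115415691 to 115419919), subunit d of the stalk, had 1434 counts in TKO and 1102 in WT, 1.36-fold higher (1.26 to 1.47). The other 3 stalk genes, Atp5j, Atp5o and Atp5f1, had log2 ratios of 0.34, 0.29 and 0.23. Of the small membrane subunits, Atp5j2, subunit f, had 852 counts in TKO and 688 in WT (log2 ratio 0.37, 0.23 to 0.52). Atp5k, subunit e, which helps the synthase to pair into dimers, had 560 in TKO and 453 in WT (1.29-fold, 1.14 to 1.47). Atp5l, subunit g, known for the same role, had 837 counts in TKO and 852 in WT (log2 ratio 0.040, -0.099 to 0.18).

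The catalytic head, F1, and the c ring that rotates beneath it had medians of 0.092 over 5 genes and 0.040 over 3 genes. The c-ring genes were about as long as those of the peripheral stalk, with median lengths of 731 and 710 bases. Atp5b, the catalytic beta subunit and the most abundant transcript of complex V, had 6442 counts in TKO and 6323 in WT (1.07-fold, 1.03 to 1.10). Atp5a1, the alpha subunit, had 5385 counts in TKO and 5667 in WT (log2 ratio -0.0081, -0.062 to 0.046). Atp5c1, the rotating gamma subunit, had 1837 counts in TKO and 1609 in WT (1.19-fold, 1.12 to 1.28), and Atp5e, the epsilon subunit, had 679 in TKO and 579 in WT. Atp5d, the delta subunit of the rotor, had 1077 counts in TKO and 1232 in WT. Its log2 ratio of -0.13 (-0.25 to -0.0093) made it the 1 member with an interval below 0, and with the length trend removed it was at -0.33 (-0.45 to -0.21).

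The 3 genes Atp5g1, Atp5g2 and Atp5g3 encode the same mature c-ring protein behind different import signals. Atp5g1 had 449 counts in TKO and 457 in WT, Atp5g2 had 1002 in TKO and 976 in WT, and Atp5g3 had 862 in TKO and 895 in WT. All 3 intervals included no change, and their sum had a log2 ratio of 0.056 (-0.027 to 0.14). In FPKM, Atp5g2 made up 47.3% of the 3 in TKO and 45.9% in WT, Atp5g3 35.8% in TKO and 37.0% in WT, and Atp5g1 17.0% in TKO and 17.2% in WT. With the length trend removed, the 3 genes were at log2 ratios of -0.18 for Atp5g1, -0.14 for Atp5g2 and -0.22 for Atp5g3. Atp5s and Atp5sl carry the prefix without being structural subunits. Atp5s had 27 counts in each library. Atp5sl, now named Dmac2 in RefSeq, had 339 in TKO and 283 in WT (log2 ratio 0.33). It was the fifth of the 5 complex V symbols past the 0.32 threshold, beside Atp5h, Atp5j2, Atp5k and Atp5j. These 5 were 29.4% of 17 symbols, against 11.5% of all genes and 25.4% of other genes under 1000 bases.

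**Figure D3:**
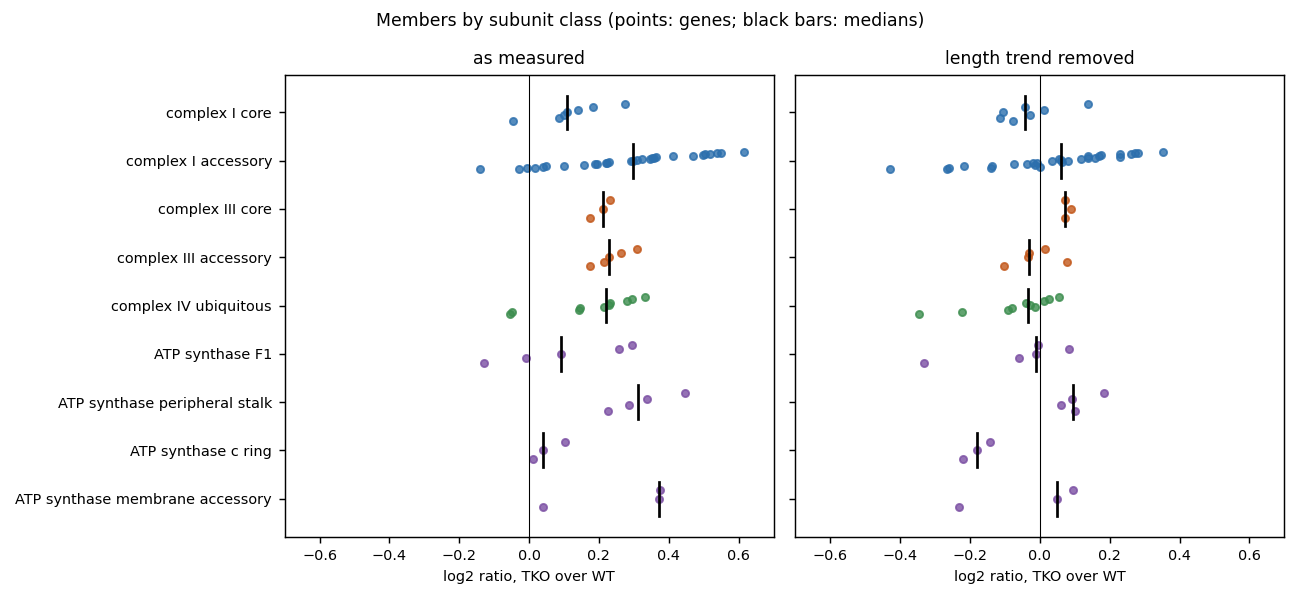
Points are members with at least 20 counts, by subunit class; the horizontal axis is the log2 ratio, TKO over WT, as measured (left) and with the length trend removed (right), and black bars are medians. The peripheral stalk has a median of 0.31 as measured and 0.095 with the trend removed, and the c ring 0.040 and -0.18.

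With the length trend removed, few members stood out by size. Only Ndufa12 was then higher at the 0.32 threshold (log2 ratio 0.35, 0.18 to 0.53), and Ndufb2, Cox7c and Atp5d were lower by that rule. Over all genes, 9.56% were higher and 8.65% lower by the same rule. Without a threshold of size, the interval was above 0 for 7 members (9.46%) and below 0 for 10 (13.5%). Over all genes these shares were 19.1% and 17.6%. The 7 were Ndufa12, Ndufs5, Ndufa5, Ndufb9, Ndufa3, Atp5h and Atp5f1. The 10 were Ndufb2, Ndufc2, Ndufa2, Cox7b, Cox7c, Atp5d, Atp5a1, Atp5l, Atp5g2 and Atp5g3. Length and log2 ratio had a Spearman rho of -0.43 across the 74 members and -0.45 across the 11451 other genes, a description across genes that share the same 2 libraries.

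The order of levels was almost the same in both libraries. Across the 74 members, log2 FPKM in TKO and WT had a Pearson r of 0.99, again across genes that share libraries. Complex I members had a median of 63.8 FPKM in TKO and 54.1 FPKM in WT, and ran from 9.34 to 202 FPKM in TKO and from 9.34 to 159 FPKM in WT. Ndufa11 was the lowest past the count minimum in both libraries. Ndufa3 was the highest complex I symbol in TKO with 202 FPKM, against 147 FPKM in WT, where Ndufa4 led with 159 FPKM. Ndufa4 had 195 FPKM in TKO. Its level was above the median of each complex, of which complex V had the highest, 157 FPKM in TKO and 130 FPKM in WT. The median complex IV symbol had 129 FPKM in TKO and 125 FPKM in WT.

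In complex III, levels ran from 32.8 FPKM for Uqcrq to 214 FPKM for Uqcrb in TKO, and from 29.0 to 194 FPKM for the same genes in WT. All 8 genes kept their rank in the complex. In complex IV, Cox6b1 led with 379 FPKM in TKO and 309 FPKM in WT, followed in TKO by Cox6a1 with 301 FPKM, Cox4i1 with 299 FPKM and Cox5b with 296 FPKM. In WT the order of these 3 was Cox4i1 with 265 FPKM, Cox5b with 259 FPKM and Cox6a1 with 252 FPKM, so neighbours differed by less than their shift between libraries. Cox7b had 47.1 FPKM in TKO and 49.99 FPKM in WT, the lowest of the 10 subunits present in most tissues. Atp5b led complex V with 322 FPKM in TKO and 310 FPKM in WT. Atp5h, with 246 FPKM in TKO and 185 FPKM in WT, stood above Atp5a1 in TKO and below it in WT. Atp5a1 had 206 FPKM in TKO and 213 FPKM in WT.

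**Figure D4:**
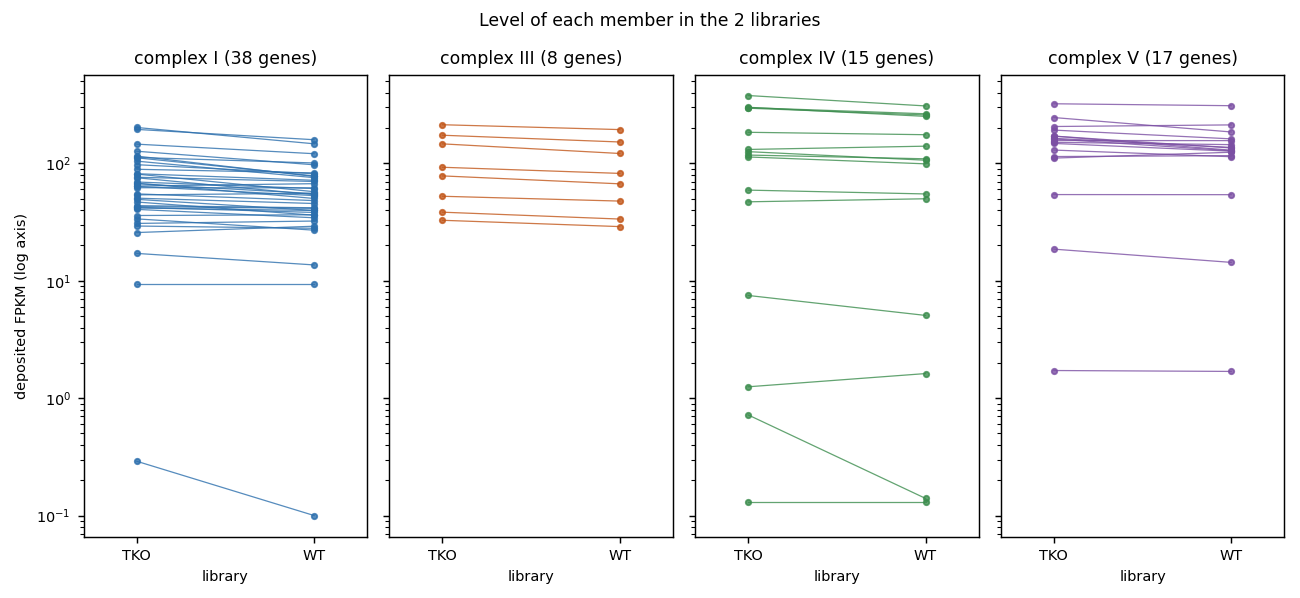
Each line joins the deposited FPKM of a member in TKO (left) and WT (right), on a log axis, with a panel for each complex. Most lines slope slightly down towards WT, and the lines below 2 FPKM are Ndufa4l2, Cox6a2, Cox6b2, Cox4i2 and Atp5s.

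Promoters were searched because genes of this pathway share known activators: nuclear respiratory factor 1 (NRF1), the ETS factor GABP, and YY1. The letters searched, on both strands, were the 10 in capitals in the first sequence below for NRF1, AAGATGGC for YY1 and CCGGAAGT for ETS factors, in RefSeq promoters (GRCm38.p6) from 250 bases before to 50 bases after a start site. Matches to different motifs did not overlap in any member. RefSeq promoters were matched for 65 of the 78 members, with 71 start sites. YY1 letters were in 16.9% of member promoters, 4.67% of promoters of genes with at least 20 counts and 2.75% of all promoters. In the same order, NRF1 letters were in 7.04%, 2.17% and 0.971%, and ETS letters in 7.04%, 8.50% and 3.89%. Stretches of 30 bases around the match, in capitals, are shown for the members with NRF1 letters and, for the other motifs, for the 2 members with the highest log2 ratio. Strands are those of the gene, and the Atp5h match is the reverse complement of the ETS letters.
Atp5k, NRF1, chr5:108434430-108434459, minus strand: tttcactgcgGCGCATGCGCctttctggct
Cox6a1, NRF1, chr5:115349101-115349130, minus strand: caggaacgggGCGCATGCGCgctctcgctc
Uqcrc1, NRF1, chr9:108936668-108936697, plus strand: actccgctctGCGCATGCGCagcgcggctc
Atp5g2, NRF1, chr15:102671070-102671099, minus strand: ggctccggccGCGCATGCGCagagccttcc
Ndufa11, NRF1, chr17:56717692-56717721, plus strand: cctgcactgcGCGCATGCGCgcacgccttg
Ndufa3, YY1, chr7:3617384-3617413, plus strand: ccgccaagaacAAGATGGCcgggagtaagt
Ndufc1, YY1, chr3:51408915-51408944, minus strand: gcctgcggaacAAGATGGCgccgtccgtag
Atp5h, ETS, chr11:115419940-115419969, minus strand: ccaaggagagaACTTCCGGcaactctcttc
Uqcr11, ETS, chr10:80406869-80406898, minus strand: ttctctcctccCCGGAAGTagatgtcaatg
The 5 members with NRF1 letters had log2 ratios from 0.37 for Atp5k to 0.039 for Ndufa11, with a median of 0.21, against 0.23 for members without. The 11 members with YY1 letters had a median of 0.33, against 0.23 for those without, and the 5 with ETS letters 0.28 against 0.23. With the length trend removed, the members with YY1 letters ran from -0.14 for Ndufa9 to 0.23 for Ndufs4. The part of gene length in these medians was not tested.

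Other genes of the pathway differed in both directions, read here against the 11.5% of genes higher and 12.9% lower at the 0.32 threshold. Complex II, succinate dehydrogenase, had 0 of 4 genes past the threshold and a median log2 ratio of 0.18. Its members ran from Sdhd at 0.29 to Sdha at -0.037, and Sdhb had the highest level, 124 FPKM in TKO and 110 FPKM in WT. Cycs, the mobile carrier cytochrome c, had 994 counts in TKO and 802 in WT (log2 ratio 0.38, 0.24 to 0.51), and Cyc1, cytochrome c1 of complex III, had 414 in TKO and 391 in WT.

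Assembly factors, which are not part of the finished complexes, had log2 ratios with standard deviations of 0.39 for complex I and 0.45 for complex IV, mostly on fewer counts than the subunits. For complex I, 2 of 14 measured factors were higher and 1 lower, with a median log2 ratio of 0.12. Ndufaf2 had 117 counts in TKO and 62 in WT (1.97-fold, 1.44 to 2.73), and Tmem126b had 91 in TKO and 149 in WT (log2 ratio -0.65, -1.04 to -0.26). Tmem126b also had the highest level of this list in WT, with 15.8 FPKM, against 9.83 FPKM in TKO. For complex III, 1 of 5 was higher, with a median of 0.21, from Uqcc2 at 0.47, also the most abundant, to Ttc19 at -0.011. For complex IV, 7 of 20 were higher and 1 lower, with a median of 0.17. Cox18, which inserts a mitochondrial subunit into the membrane, had 123 counts in TKO and 41 in WT (3.14-fold, 2.19 to 4.59), and Taco1 had 72 in TKO and 107 in WT (log2 ratio -0.51, -0.96 to -0.062). Coa3 had the highest mean level, with 34.2 FPKM in TKO and 43.1 FPKM in WT.

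Of 6 genes for ATP synthase assembly and inhibition, 2 were higher and 0 lower, with a median of 0.15. Usmg5, a small membrane subunit of the synthase, was the highest and most abundant, with 496 counts in TKO and 354 in WT (1.47-fold, 1.28 to 1.68). Atpif1, the inhibitor that stops the synthase from running backwards, had 2009 counts in TKO and 1592 in WT (1.32-fold), and Tmem70, an assembly factor, was the lowest at -0.25 (-0.53 to 0.020). Regulators of mitochondrial gene expression had 0 of 11 past the threshold and a median of 0.0025, from Tfb2m at 0.13 to Tfb1m at -0.39, with Yy1 the most abundant at 0.0025. Ppargc1a, a coactivator of this pathway, had 7 counts in TKO and 0 in WT, both under the count minimum. Genes for import and cristae had a median of 0.070 over 8 members, with 0 higher and 1 lower. Tomm22, an import receptor and the most abundant, was at 0.29, and Opa1, which shapes cristae and fuses membranes, was lower at -0.36 (-0.49 to -0.22), or -0.13 with the length trend removed.

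The libraries held 10656465 estimated counts in TKO and 10877917 in WT. All 9 macrophage markers were present, with summed levels of 3962 FPKM in TKO and 3741 FPKM in WT. They went both ways: at the 0.32 threshold Fcgr1 (log2 ratio 0.68) and Cd68 (0.39) were higher and Adgre1 (-0.43) was lower, and over all 9 the interval lay above 0 for 3 and below 0 for 5, with a median of -0.089. Csf1r, the receptor for the growth factor, had 893 FPKM in TKO and 975 FPKM in WT. Markers of fibroblasts and stroma were lower in TKO, with 6 of 7 measured genes lower at the 0.32 threshold, Lum at 2 counts in each library, and 25.3 FPKM in TKO against 83.9 FPKM in WT in sum over 8 genes. Of the dendritic cell markers, 3 of 4 measured genes were higher, with sums over 6 genes of 22.1 FPKM in TKO and 9.08 FPKM in WT. A single gene made up most of both sums, and the other genes called higher had at most 27 counts in either library. Zbtb46 went the other way, with 3 counts in TKO and 5 in WT, under the count minimum. Neutrophil markers summed to 8.63 FPKM in TKO and 4.41 FPKM in WT, with Camp at 0 counts in TKO and Elane at 0 in WT. Of the 2 osteoclast markers, Acp5 was higher (log2 ratio 0.70, 0.31 to 1.10) and Ctsk lower (-0.49, -0.85 to -0.14), with sums of 16.2 FPKM in TKO and 15.8 FPKM in WT. Lymphocyte and erythroid markers stayed at 0 to 3 counts, with Ms4a1 at 0 in WT. The part of these markers in the members' ratios was not tested, and in bulk RNA fewer cells of a type and less RNA per cell cannot be told apart.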

How the data were processed

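The members, gene lists and rules were chosen with earlier results of these data known. Polyadenylated RNA of 1 TKO and 1 WT library was sequenced. The submitters' processing notes name mm10 with HISAT2 2.0.4, Bowtie2 2.2.5 and RSEM 1.2.12, in no stated role; which annotation and filters applied, and whether strand was used, is not stated in the sources. Expected counts, estimated per gene, were deposited by the authors, and 21.1% in TKO and 21.3% in WT were not whole. The deposited FPKM values, per the file headers, are scaled by the authors for gene length and depth. The deposited table also holds the authors' log2 ratio, p-value and FDR score, of unstated test, which were not used, and the gene length.

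Counts were rounded and scaled with TMM factors (edgeR 4.0.16, R 4.3.3): 0.988 for TKO and 1.01 for WT. Ratios had no pseudocount, but a count of 0 was set to 3 for the ratio. The 95% intervals of the ratios are exact conditional binomial (Clopper-Pearson). They cover counting error only, with each read taken as independent. Whether PCR copies of a molecule were removed is not stated in the sources. Genes needed 20 counts in 1 library. The length trend was a lowess fit (span 0.3, statsmodels 0.14.6) over all genes past that minimum. Named were, per complex, the 3 highest and 3 lowest members, the most abundant by FPKM, those past 1.5-fold, those under the minimum, tissue isoforms with their partners and core subunits; per other list, the highest, lowest and most abundant gene. Further members are named to complete a class or a count, after their values were seen. All 78 members matched RefSeq (GRCm38.p6) by Entrez identifier; GENCODE M21 (GRCm38) gave the 3' UTRs. The code was tested on simulated counts. Alternatives were other scalings (DESeq2 1.42.0 size factors, library totals), FPKM, other count minimums, thresholds and intervals, length correction and narrower member lists. Values of 1 member and 1 marker gene are not reported here, though both enter the counts and medians.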

Additional observations from a re-analysis of the deposited data

How the results depend on the processing

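The medians of the 4 complexes and of all members kept their direction under every alternative except removal of the length trend. With that trend removed they were 0.035 for complex I, 0.043 for complex III, -0.034 for complex IV, -0.0046 for complex V and 0.0073 for all members, and 1 member was higher and 3 lower at the 0.32 threshold of the log2 ratio. Of the 39 genes named by the rule, 15 then changed sign. In 7 of these the interval had excluded no change as measured, namely Uqcr10 (-0.031), Uqcrb (-0.10), Cox5b (-0.029), Cox4i1 (-0.013), Cox5a (-0.092), Cox7a2l (-0.078) and Atp5b (-0.0099). The lowess fit is by construction centred on genes of the same length. Library totals in place of TMM gave 12 members higher at that threshold in place of 20, DESeq2 size factors and log2(FPKM + 1) each gave 15, and FPKM without a pseudocount gave 16. Both FPKM counts rest on the size of the ratio alone, without the requirement on the interval. With 1.5-fold in place of either threshold 1 member was higher, and with 4-fold 0. Among genes under 1000 bases, a comparison chosen after seeing the data, the median over all genes was 0.23. No paired analysis was possible because each genotype has 1 library. Depth limits the 4 members under 20 counts and Atp5s and Cox7a1, whose intervals were the widest of the others.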

Other observations

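In 3 of 74 members (4.05%), a share near that of all genes, the deposited FPKM moved further between the libraries than the counts did. After centring on all genes, the log2 FPKM ratio exceeded the log2 count ratio by 0.099 for Atp5j, 0.087 for Atp5sl and 0.076 for Ndufv3, where a gap above 0.05 in either direction was found for 3.25% of 11099 genes. Atp5j had 171 FPKM in TKO and 130 FPKM in WT, and Ndufv3 had 127 FPKM in TKO and 97.4 FPKM in WT. The deposited table gives 1 length per gene, so the length behind each library's FPKM is not known.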
